A study of Mus musculus with 10 samples.

Results

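The mitochondrial genome of the mouse encodes 13 mRNAs, 2 rRNAs and 22 tRNAs, and these 37 genes were taken from a table of 55421 genes as all those whose name begins with mt-. They were compared between livers that had lost the histone variant H3.3 in hepatocytes and 2 kinds of control. RNA from the livers of 10 male C57BL/6 mice was selected for poly(A) tails and sequenced. The 4 H3.3 KO mice were H3f3a fl/fl and H3f3b fl/fl, where H3f3a and H3f3b are the genes for H3.3, and received AAV8 Tbg-Cre, a virus that carries Cre recombinase under the hepatocyte promoter Tbg. The 3 WT Cre controls were wild type and received the same virus, and the 3 MCS controls carried the same floxed alleles and received AAV8 Tbg-MCS, which has no Cre. All mice, controls included, therefore received AAV8, at 6 months of age, and livers were taken 3 weeks later. Cells of the liver that do not use the Tbg promoter keep H3.3 in this model. The genotype field of the labels names HIRA fl/fl for the floxed mice, whereas titles and series text name H3f3a and H3f3b, and the groups here follow the titles.

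Mitochondrial DNA is a small circle that is transcribed from both strands into long precursors. The tRNAs punctuate these precursors, and their excision releases the rRNAs and mRNAs, most of which then receive short poly(A) tails. The mRNAs encode subunits of complexes I, III, IV and V of oxidative phosphorylation. The rRNAs and tRNAs are part of the translation machinery of the organelle, and every other mitochondrial protein is encoded in the nucleus. The liver is rich in mitochondria, which serve ATP supply, fatty acid oxidation and the urea cycle. The rRNAs come from the start of the heavy-strand precursor, immediately before mt-Nd1. The annotation (GENCODE release M21, the mm10 genome build) places mt-Nd6 and 8 tRNAs on the minus strand and all other members on the plus strand.

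Stretches of the mitochondrial genome also lie in nuclear chromosomes, and the sequences show which members have reads that could come from either place. The longest annotated run holds 7 pseudogenes at chr1:24611535-24616197 (minus strand), in the order of the mitochondrial genes from mt-Co1 to mt-Nd4. Within mt-Co2 and its copy Gm28661, a stretch of 60 bases, at chrM:7325-7384 (plus strand) and chr1:24615194-24615253 (minus strand), was the same in every base.
mt-Co2: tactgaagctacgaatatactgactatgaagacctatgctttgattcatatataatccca
Gm28661: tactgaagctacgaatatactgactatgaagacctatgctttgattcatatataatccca
The copy of mt-Co1, Gm29216, covers only part of its gene, and 60 bases from the edge of the copy, at chrM:6381-6440 (plus strand) and chr1:24616138-24616197 (minus strand), are shown with the bases that differ in capitals.
mt-Co1: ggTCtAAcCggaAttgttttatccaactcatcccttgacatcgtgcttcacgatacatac
Gm29216: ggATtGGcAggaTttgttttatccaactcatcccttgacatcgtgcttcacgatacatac
All 6 differences over the 492 aligned bases stand in this window. Gm28661, Gm10925, Gm28437, Gm10222 and Gm28439, the copies of mt-Co2, mt-Atp6, mt-Co3, mt-Nd4l and part of mt-Nd4, had 0 mismatches over 681, 678, 783, 294 and 876 aligned bases. Gm28438, the copy of mt-Nd3, had 1 mismatch over 345 bases. Of all windows of 50 bases in each gene, 100% of those of mt-Co2 also occurred in another annotated transcript. This share was 99.5% for mt-Atp6, 99.9% for mt-Co3, 98.0% for mt-Nd3, 98.8% for mt-Nd4l, 62.2% for mt-Nd4 and 51.1% for mt-Co1. It was 8.19% for mt-Nd2, 7.61% for mt-Nd5, 1.04% for mt-Rnr2 and 0 for the other members. The value for mt-Atp8 covers annotated transcripts only. Between Gm10925 and Gm28661, where a copy of mt-Atp8 would stand, 233 bases carry no annotated gene, against 230 bases between mt-Co2 and mt-Atp6. The nuclear genome sequence was not used here.

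Neighbouring mitochondrial genes also share bases with each other. The coding sequences of mt-Atp8 and mt-Atp6, which are read from a single mRNA, overlap by 43 bases, in capitals at chrM:7917-7979 (plus strand).
mt-Atp8 and mt-Atp6: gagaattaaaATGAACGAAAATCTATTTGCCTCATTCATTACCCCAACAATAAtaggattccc
The same holds for mt-Nd4l and mt-Nd4, with 7 shared bases in capitals at chrM:10157-10183 (plus strand).
mt-Nd4l and mt-Nd4: acctactacaATGCTAAaaattattct
Reads from these overlaps cannot be assigned to a single gene.

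Total counts ran from 14998426, in KO 1, to 26096141. The chi-square per degree of freedom between replicate libraries was 10.3 to 96.7, above what sampling of reads alone gives. No library was therefore another one sequenced again, whereas libraries prepared anew from the same liver would not be detected this way. H3f3a fell to 28.1% of its control mean, with 62.1 ± 1.58 CPM in the controls and 17.4 ± 1.66 CPM in KO. H3f3b fell to 31.6%, with 160 ± 24.0 and 50.5 ± 7.40 CPM. CPM are counts relative to library totals after scaling each library by TMM, the normalization of edgeR. Nothing in the labels says whether RNA was prepared in batches, and p-values measure the spread between these mice. In bulk liver, fewer cells of a type and less RNA per cell cannot be told apart.

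Mitochondrial transcripts took a large part of every library, and a smaller part in KO. The 37 genes together held 6.00% ± 0.450 of all counts in the controls (SD, n = 6) and 5.18% ± 0.101 in KO (SD, n = 4). The values were 6.84%, 5.81% and 5.96% in WT Cre controls 1 to 3, 6.00%, 5.50% and 5.89% in MCS controls 1 to 3, and 5.14%, 5.34%, 5.15% and 5.12% in KO 1 to 4. All KO livers lay below all controls. Nearly all of these counts were mRNA, at 5.83% ± 0.459 and 5.08% ± 0.105 of all counts. The rRNAs held 0.162% ± 0.0427 and 0.0976% ± 0.0120, again without overlap. The tRNAs held 0.00583% ± 0.00138 and 0.00596% ± 0.000985, where the groups overlapped. By complex, the share in KO stood at 96.4% of the control mean for complex I, 73.3% for complex III, 83.8% for complex IV and 48.4% for complex V, with overlap for complex I only. In TMM-scaled CPM the sums stood at 85.3%, 64.5%, 74.1% and 43.1%, without overlap in any complex. Complex I then had 21389 to 23421 CPM in KO and 24037 to 30308 CPM in the controls. Both values for complex V rest on the counts of mt-Atp6 and mt-Atp8, which were a small part of what FPKM give. By FPKM these genes stood at 86.5% and 93.8% of the control mean and did not pass (limma adjusted p of 0.0512 and 0.607). Those for complex IV rest mainly on mt-Co1, with 22543 of 22965 CPM in the controls. Counts of mt-Co2 and mt-Co3, and of mt-Nd3 and mt-Nd4l in complex I, were also a small part of FPKM. By FPKM mt-Co2 and mt-Co3 stood at 97.7% and 84.4% of the control mean and did not pass (limma adjusted p of 0.79 and 0.0693). Over the 29 members with under 10% of windows shared, without mt-Atp8, the share was 3.26% ± 0.238 in the controls and 2.92% ± 0.105 in KO, and KO 2, at 3.05%, lay above MCS 2, at 2.98%. The overlap depended on the scale. In TMM-scaled CPM these members had 31263 to 37692 in the controls and 25734 to 28460 in KO.

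**Figure D1:**
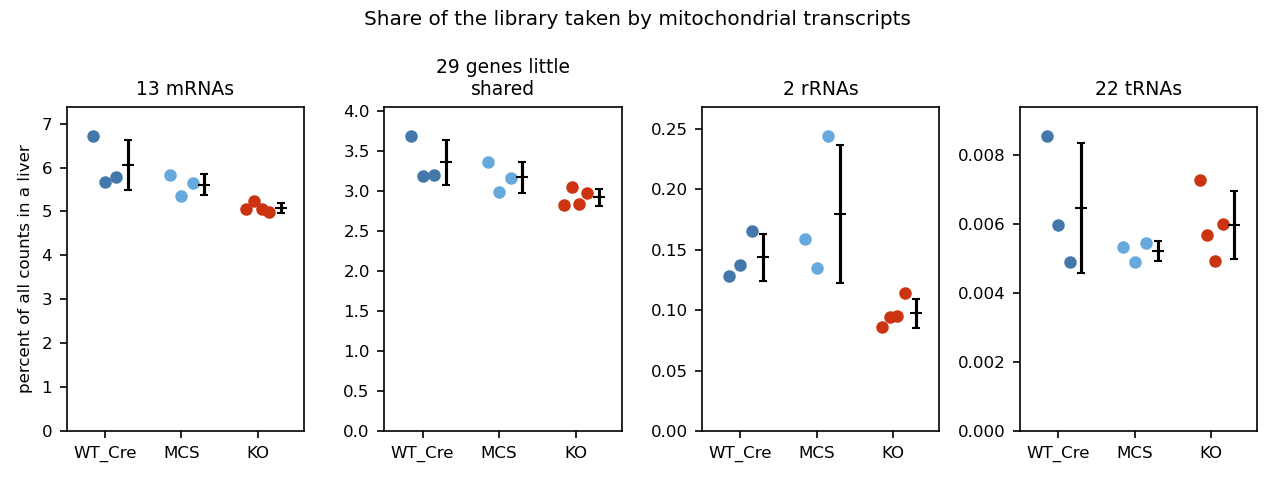
Percent of all counts in each liver taken by the 13 mRNAs, by the 29 members with little shared sequence, by the 2 rRNAs and by the 22 tRNAs (points are livers, bars are mean ± SD; each panel has its own axis from 0). KO livers lie below all controls for the mRNAs and the rRNAs and among them for the tRNAs.

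Of the 37 members, 26 had at least 10 counts over all livers and could be tested. In KO against all 6 controls, 19 of the 26 were lower and 0 were higher (edgeR quasi-likelihood test, adjusted p under 0.05 over 22449 genes). Among all genes tested, 16.6% were lower and 19.7% higher. The 19 were 10 of 13 mRNAs, both rRNAs and 7 of 11 tRNAs tested. Of these, 10 also had a log2 fold change under -1, against 5.79% of all genes. For 15 members every KO liver lay below every control, which held for 12.0% of all genes. The median log2 fold change of the 26 was -0.90, beside 0.00 for all genes. The count was 20 without KO 1, the shallowest library, and 20 without MCS 3, the control with the most rRNA. It fell to 14 without KO 2 or without KO 3 and to 15 without KO 4. Scaling by library size alone, without TMM, moved the median of all genes by 0.18 upwards on the log2 scale and the share of higher genes among those called from 54.3% to 72.2%. With it, 14 members were lower and 0 higher, against 9.68% of all genes lower.

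**Figure D2:**
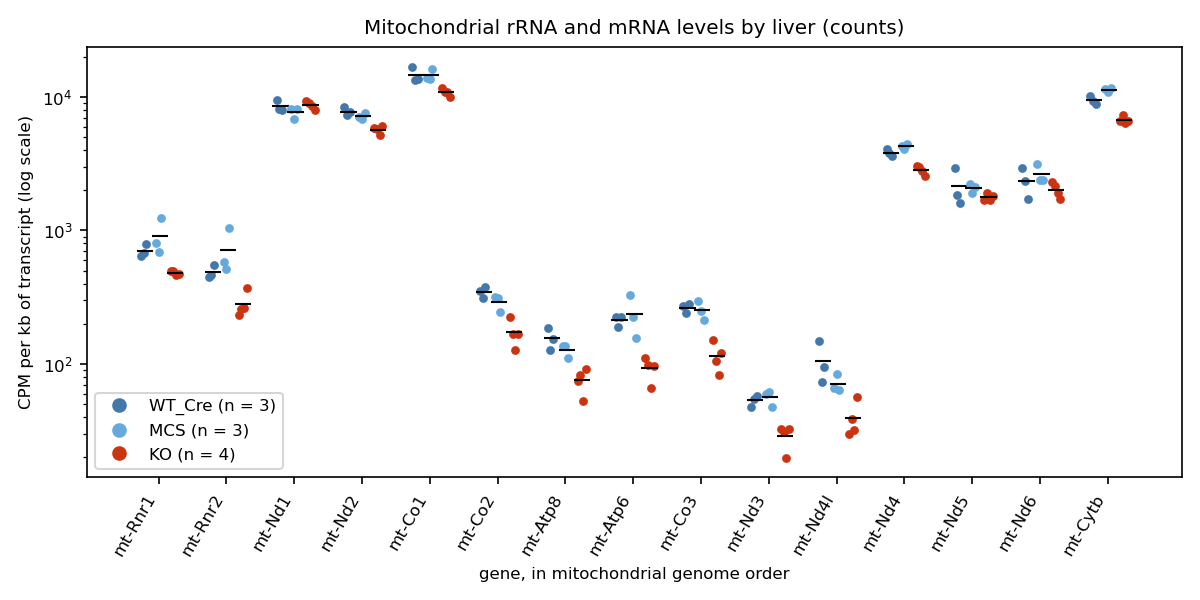
Level of each mitochondrial rRNA and mRNA in every liver, as CPM per kb of transcript on a log scale, in mitochondrial genome order (points are livers, black lines are group means). mt-Nd1, mt-Nd5 and mt-Nd6 overlap between groups, and the genes from mt-Co2 to mt-Nd4l lie far below their neighbours in all livers.

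The rRNAs are the RNA parts of the small and the large subunit of the mitochondrial ribosome, and the counts of both were lower in KO. RNA was selected for poly(A) tails, so these counts cover the captured rRNA only, and total rRNA was not measured. mt-Rnr1, the 12S rRNA (chrM:70-1024, plus strand), stood at 477, 473, 446 and 448 CPM in KO 1 to 4. In the controls it had 613, 645 and 753 CPM (WT Cre) and 768, 655 and 1177 CPM (MCS). Its log2 fold change was -0.74 (SE 0.172, adjusted p = 0.00475 by edgeR). mt-Rnr2, the 16S rRNA (chrM:1094-2675, plus strand), had 366, 407, 416 and 582 CPM in KO 1 to 4. The controls had 703, 736 and 864 CPM (WT Cre) and 919, 809 and 1663 CPM (MCS). Its log2 fold change was -1.10 (SE 0.242, adjusted p = 0.00376 by edgeR). In neither rRNA did any KO liver reach a control, and MCS 3 was far above the other controls. Without MCS 3 the log2 fold changes were -0.57 and -0.87, with edgeR adjusted p of 0.0017 and 0.000985.

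Complex I takes electrons from NADH, and its 7 mitochondrial subunits did not move together. mt-Nd1, the first mRNA behind the rRNAs (chrM:2751-3707, plus strand), was the only mRNA with a positive log2 fold change in TMM-scaled counts, 0.10 (SE 0.121), and did not pass the test (adjusted p = 0.574, edgeR). It had 8858, 8644, 8134 and 7619 CPM in KO 1 to 4. The WT Cre controls had 9089, 7717 and 7695 CPM, and the MCS controls 7830, 6589 and 7712 CPM, so that the groups overlapped. mt-Nd2, the next mRNA (chrM:3914-4951, plus strand), was lower, at 6066, 5979, 5363 and 6278 CPM against a control range of 7041 to 8682 CPM (median 7744). Its log2 fold change was -0.39 (SE 0.115, adjusted p = 0.0174 by edgeR), and the groups did not overlap. This call was lost without KO 2 or without KO 3 (log2 fold changes of -0.38 and -0.33) and with library size alone (-0.21).

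Of the remaining complex I genes, mt-Nd4 (chrM:10167-11544, plus strand) had 4207, 4099, 3830 and 3519 CPM in KO 1 to 4, below all controls, which ran from 4997 to 6132 CPM (median 5615). Its log2 fold change was -0.51 (SE 0.116, adjusted p = 0.00394 by edgeR). mt-Nd3 and mt-Nd4l, both with near-identical nuclear copies, had log2 fold changes of -0.92 and -1.16 (edgeR adjusted p of 0.00039 and 0.00626), and neither passed on FPKM (0.11 and -0.23). Their levels were low, at 19.1 ± 2.12 and 26.2 ± 9.45 CPM in the controls (SD, n = 6) and 10.1 ± 2.14 and 11.7 ± 3.61 CPM in KO (SD, n = 4). mt-Nd5 (chrM:11742-13565, plus strand), the largest mitochondrial mRNA of the chain, had 3077, 3467, 3063 and 3319 CPM in KO and 2925 to 5385 CPM in the controls (median 3670). The groups overlapped, and its log2 fold change of -0.25 (SE 0.159) did not pass (adjusted p = 0.239, edgeR). mt-Nd6 is the only mRNA of the minus strand (chrM:13552-14070). It had 1193, 1110, 983 and 898 CPM in KO and 896 to 1628 CPM in the controls (median 1244). Its log2 fold change was -0.31 (SE 0.160, adjusted p = 0.156 by edgeR), again with overlap. The sources used here do not state whether counting used strand, so reads of mt-Nd6 and of the opposite strand, which includes the end of mt-Nd5, cannot be told apart.

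mt-Cytb, cytochrome b of complex III and the only mitochondrial subunit of that complex (chrM:14145-15288, plus strand), was lower in all KO livers. It had 7512, 8327, 7286 and 7497 CPM in KO 1 to 4. The WT Cre controls had 11612, 10670 and 10136 CPM and the MCS controls 13058, 12454 and 13249 CPM. KO reached 64.5% of the control mean, a log2 fold change of -0.63 (SE 0.126, adjusted p = 0.00175 by edgeR). No window of this gene was shared with another transcript, and the call was kept with library size alone (-0.45, adjusted p = 0.00337).

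Complex IV, cytochrome c oxidase, passes electrons to oxygen and has its core subunits encoded by mt-Co1, mt-Co2 and mt-Co3. mt-Co1 (chrM:5328-6872, plus strand) was the most abundant member, with 18003, 16962, 16802 and 15484 CPM in KO 1 to 4 and 20548 to 26117 CPM in the controls (median 21245). The groups did not overlap, and its log2 fold change was -0.42 (SE 0.127, adjusted p = 0.0195 by edgeR). The call was lost without KO 2, KO 3 or KO 4 (log2 fold changes of -0.42, -0.41 and -0.39) and with library size alone (-0.25). mt-Co2 (chrM:7013-7696, plus strand) had 155, 115, 86.8 and 115 CPM in KO, all below the controls at 168 to 258 CPM (median 216), with a log2 fold change of -0.89 (SE 0.159, adjusted p = 0.000815 by edgeR). mt-Co3 (chrM:8607-9390, plus strand) had 118, 82.2, 65.1 and 94.8 CPM in KO, all below the controls at 168 to 234 CPM (median 203), with a log2 fold change of -1.17 (SE 0.157, adjusted p = 0.000108 by edgeR). Both have nuclear copies without a mismatch, and on FPKM neither passed (-0.04 and -0.25, limma adjusted p of 0.79 and 0.0693).

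mt-Atp8 and mt-Atp6 encode parts of the proton channel of complex V, the ATP synthase, and were lower in counts but did not pass on FPKM with a pseudocount of 1. mt-Atp6 (chrM:7927-8607, plus strand) had 75.3, 66.6, 45.2 and 65.7 CPM in KO 1 to 4 and 107 to 225 CPM in the controls (median 153). Its log2 fold change of -1.28 (SE 0.198, adjusted p = 0.000363 by edgeR) was the most negative of the mRNAs. mt-Atp8 (chrM:7766-7969, plus strand) had 15.1, 16.9, 10.8 and 18.6 CPM in KO and 22.5 to 38.1 CPM in the controls (median 27.7), a log2 fold change of -0.91 (SE 0.167, adjusted p = 0.000981 by edgeR). KO and controls did not overlap in either gene.

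The counts of the genes inside the chromosome 1 run differed from the FPKM values, fragments scaled by transcript length and library size, deposited for the same livers. Divided by length and library total, the counts came to 0.427% of the FPKM for mt-Atp8 (median over the 10 livers). They were 1.53% for mt-Nd3, 1.83% for mt-Nd4l, 2.01% for mt-Atp6, 2.83% for mt-Co3 and 2.96% for mt-Co2. They were 76.5% for mt-Nd4 and 91.9% for mt-Co1, the genes with a partial copy, and 86.9% to 115% for the other mRNAs and the rRNAs. Reads with several matching places are a property of the genes with copies, but how either table treated such reads was not stated. By FPKM these genes had levels in the range of the other mRNAs or above it, from 2879 FPKM for mt-Nd3 to 28520 FPKM for mt-Atp8 in the controls, beside 1752 FPKM for mt-Nd5 and 15094 FPKM for mt-Co1. mt-Co2 was at 8795 ± 478 FPKM in the controls (SD, n = 6) and 8593 ± 930 FPKM in KO (SD, n = 4).

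The fold changes of the same genes also differed between the tables. On log2(FPKM + 1), mt-Co2 had -0.04, mt-Atp8 -0.09, mt-Atp6 -0.21, mt-Co3 -0.25, mt-Nd3 0.11 and mt-Nd4l -0.23, and none of these passed (limma adjusted p of 0.79, 0.607, 0.0512, 0.0693, 0.397 and 0.442). In mt-Co2 the KO range, 7721 to 9903 FPKM, held the whole control range, 8061 to 9467 FPKM. With a pseudocount of 0.1, mt-Atp6 alone among these genes passed (limma adjusted p of 0.041). The lower levels of mt-Rnr1 (-0.50), mt-Rnr2 (-0.87), mt-Co1 (-0.26), mt-Nd4 (-0.29) and mt-Cytb (-0.45) passed in FPKM too, with limma adjusted p of 0.0189, 0.00945, 0.0433, 0.0146 and 0.00157. mt-Nd2 was at -0.21 and did not pass (limma adjusted p of 0.151), and mt-Nd1 was at 0.29 (limma adjusted p of 0.0707). FPKM were not scaled by TMM, and for the other mRNAs and the rRNAs their fold changes lay 0.16 to 0.23 above those of the counts. For the genes with over 90% of windows shared and mt-Atp8, they lay 0.83 to 1.07 above. In all, 7 of the 26 members were lower by FPKM, against 9.17% of all genes, and 2 of these were tRNAs, whose FPKM are doubtful as described further on. Over the 18 tested members with under 10% of windows shared, without mt-Atp8, 11 were lower by counts, beside 16.6% of all genes. These 11 were 7 of 11 tRNAs, both rRNAs and 2 of 5 mRNAs, mt-Nd2 and mt-Cytb. The other mRNAs called by counts had shared sequence or, for mt-Atp8, lay inside the same run.

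**Figure D3:**
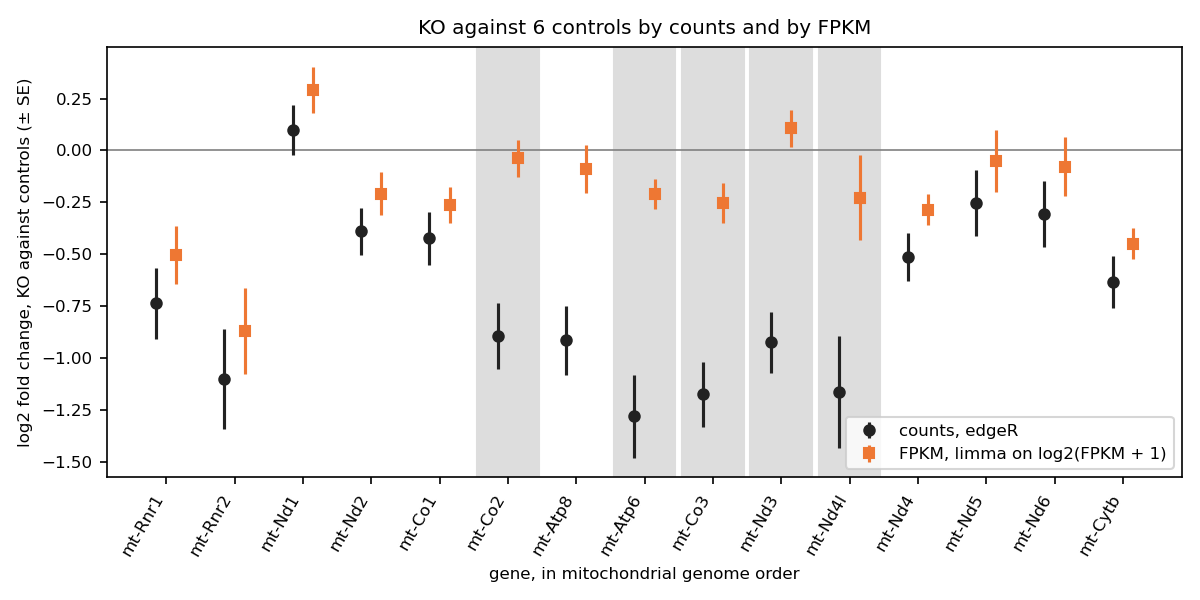
Log2 fold change of KO against the 6 controls with its SE for each rRNA and mRNA, from counts (black circles, edgeR) and from FPKM (orange squares, limma on log2(FPKM + 1)). Grey bands mark genes with over 90% of their 50-base windows found in another annotated transcript, where the 2 scales differ by 0.86 to 1.07 on the log2 scale, and mt-Atp8, inside the same run, differs by 0.83.

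The makeup of the mitochondrial mRNA does not depend on the scaling to nuclear genes, and mt-Nd1 took a larger part of it in KO. mt-Nd1 made up 18.0%, 17.7%, 17.8% and 17.0% of the counts of the 13 mRNAs in KO 1 to 4. The values were 13.2%, 13.6% and 13.6% in the WT Cre controls and 12.6%, 11.3% and 11.7% in the MCS controls, all below KO. mt-Cytb took 19.4% ± 1.80 in the controls and 16.2% ± 0.799 in KO, with overlap between KO 2, at 17.0%, and WT Cre 1, at 16.9%. The parts taken by mt-Co1 were 36.7% ± 1.47 and 35.6% ± 1.21, those by mt-Nd2 12.7% ± 0.842 and 12.6% ± 0.972, and both overlapped. Within the 5 mRNAs with under 10% of windows shared, without mt-Atp8, mt-Nd1 took 23.9% ± 1.79 in the controls and 31.8% ± 1.55 in KO, and mt-Cytb 36.5% ± 3.26 and 29.2% ± 0.870, both without overlap. By FPKM times length, mt-Nd1 took 8.34% ± 0.709 and 11.5% ± 0.232 of the 13 mRNAs, again without overlap. These shares are descriptions without a test, and a larger share for mt-Nd1 shows unequal change only.

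**Figure D4:**
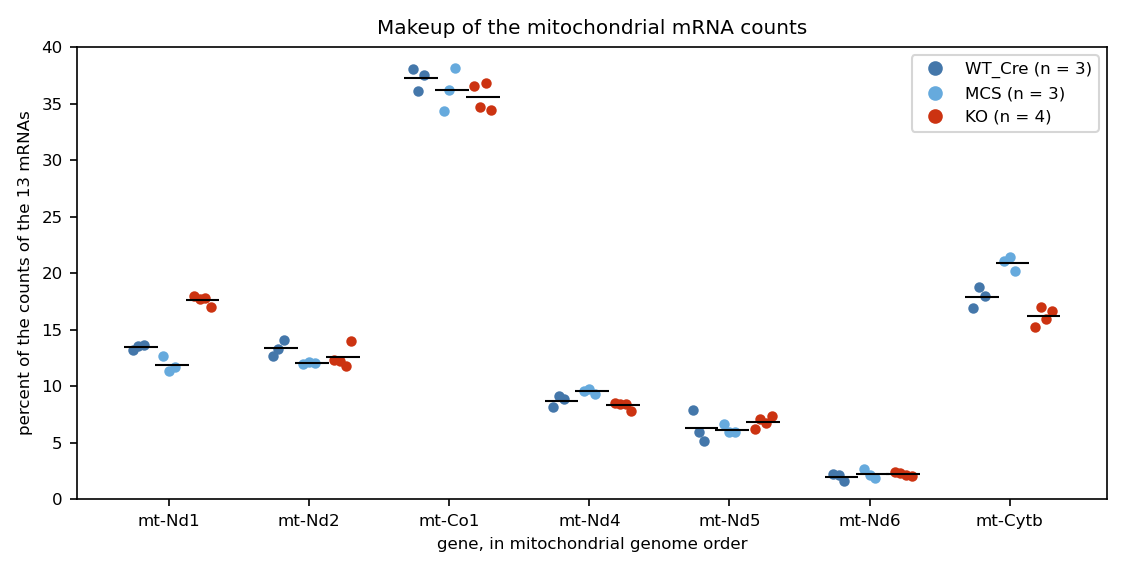
Percent of the counts of the 13 mitochondrial mRNAs taken by each of the 7 mRNAs over 1% of that sum, in every liver (points are livers, black lines are group means). mt-Nd1 lies at 17.0% to 18.0% in KO and 11.3% to 13.6% in the controls, and the other genes overlap between the groups.

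Apart from mt-Tp, the tRNAs were covered by few reads. RNA was selected for poly(A) tails, and reads of mature tRNAs and of uncut precursors cannot be told apart, so tRNA levels were not measured directly. Of the 22, 11 had fewer than 10 counts in all and were not tested, and mt-Tk and mt-Tg had 0 counts in every liver. Of the 11 tested, 7 were lower in KO and 0 higher, beside 16.6% of all genes lower. Against WT Cre alone 5 were lower, beside 13.1% of all genes, and against MCS alone 4, beside 14.8%. mt-Tl1, the leucine tRNA between mt-Rnr2 and mt-Nd1 (chrM:2676-2750, plus strand), is shown because it fills the whole gap between the rRNA that fell and the mRNA that did not pass.
mt-Tl1: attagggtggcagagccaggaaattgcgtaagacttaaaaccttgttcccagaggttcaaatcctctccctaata
It had a log2 fold change of -2.27 (SE 0.513, adjusted p = 0.00389 by edgeR), from 62 counts over all livers. Its CPM were 0.0651, 0.0791, 0.126 and 0.0382 in KO 1 to 4 and 0.112 to 0.625 in the controls (median 0.374), where KO 3 lay above MCS 3. mt-Tm, for methionine, had a log2 fold change of -1.70 (SE 0.389, adjusted p = 0.00421 by edgeR) from 130 counts, with all KO livers below all controls.

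The other 5 tRNAs that passed are encoded on the minus strand. mt-Tc, for cysteine, had 5.57 ± 0.880 CPM in the controls (SD, n = 6) and 2.63 ± 0.939 CPM in KO (SD, n = 4), a log2 fold change of -1.09 (adjusted p = 0.00221, edgeR). mt-Ta, for alanine, was at -0.86, mt-Tq, for glutamine, at -1.02, mt-Te, for glutamate, at -1.01 and mt-Ts1, for serine, at -1.21 (edgeR adjusted p of 0.00774, 0.0221, 0.039 and 0.0317). The calls of mt-Tq, mt-Te and mt-Ts1 were lost without KO 2, KO 3 or KO 4, and with library size alone. For mt-Te they were lost also without MCS 1, MCS 2, WT Cre 1 or WT Cre 2, and for mt-Ts1 also without MCS 2, WT Cre 1 or WT Cre 3. As counting by strand was not stated, reads of these 5 genes cannot be told apart from precursor reads of the plus strand. mt-Tp, for proline, held 10648 counts, most of those of all tRNAs, and overlapped between groups, at 46.6 ± 13.2 CPM in the controls and 48.5 ± 8.73 CPM in KO (log2 fold change 0.06, SE 0.189, adjusted p = 0.846 by edgeR). Its sequence, at chrM:15356-15422 (minus strand), is given as that of the tRNA with most counts.
mt-Tp: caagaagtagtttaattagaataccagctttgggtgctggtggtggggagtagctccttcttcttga
FPKM could not be used for the tRNAs, since 149 of 220 values were blank, 71 of them in livers with counts for the gene, and the listed ones ran from 1244 to 128702.

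Against each kind of control alone, the lower members were mostly mRNAs and rRNAs. Against the WT Cre controls, 17 of 26 members were lower and 0 higher, where 13.1% of all genes were lower. Against the MCS controls, 16 of 26 were lower and 0 higher, where 14.8% of all genes were lower. Both comparisons called 10 of 13 mRNAs and both rRNAs, with mt-Nd1, mt-Nd5 and mt-Nd6 not passing in either. mt-Rnr2 was at -0.79 against WT Cre and -1.35 against MCS (SE 0.236 for both, edgeR adjusted p of 0.0257 and 0.00135). mt-Cytb was at -0.50 and -0.76 (SE 0.116 for both, edgeR adjusted p of 0.00756 and 0.000525). mt-Nd1 was at 0.03 and 0.17 (SE 0.127 and 0.128, edgeR adjusted p of 0.904 and 0.333), and with library size alone it was higher against the MCS controls (0.42, edgeR adjusted p of 0.011). These comparisons share the KO livers. On log2(FPKM + 1), 4 of 13 mRNAs and 0 of 2 rRNAs were lower against WT Cre (limma). Against MCS, 2 of 13 mRNAs and both rRNAs were lower, and 1 mRNA, mt-Nd1, was higher. With library size alone, mt-Rnr1 did not pass against WT Cre (edgeR adjusted p of 0.0553). Several of the calls from TMM-scaled counts were lost when a liver was left out, with the fold change in the same direction. Against WT Cre, those of mt-Rnr1 and mt-Co1 were lost without KO 2, KO 3, KO 4 or any WT Cre control, at log2 fold changes of -0.60 to -0.44 and -0.49 to -0.31, beside -0.54 and -0.43 with all livers. That of mt-Rnr2 was lost without KO 1, KO 2, KO 3 or any WT Cre control (-0.85 to -0.70). That of mt-Nd2 was lost without KO 3, WT Cre 1 or WT Cre 3 (-0.45 to -0.39) and that of mt-Nd4 without WT Cre 1 or WT Cre 2 (-0.43 and -0.38). Against MCS, the call of mt-Nd2 was lost without any single liver other than KO 1 (-0.37 to -0.27). That of mt-Co1 was lost without KO 2, KO 3, KO 4, WT Cre 3 or any MCS control (-0.46 to -0.33), and that of mt-Nd4l without KO 1, KO 2, KO 3 or any MCS control (-0.92 to -0.71). The count against WT Cre fell to 11 without KO 3, to 9 without WT Cre 1 and to 10 without WT Cre 3.

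Between the 2 kinds of control, which differ in the floxed alleles and in the Cre, 0 of 26 members were called (edgeR), where 0.927% of all genes were. At an unadjusted p under 0.05, 1 member, mt-Rnr2, passed (log2 fold change of WT Cre over MCS -0.56, SE 0.254, adjusted p = 0.465 by edgeR), the counts without MCS 3 being 0. DESeq2 and limma on FPKM also called 0, with 2 and 4 members at an unadjusted p under 0.05.

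Subunits of the same complexes that are encoded in the nucleus were lower in KO as well. Of 76 genes tested, which include the inhibitor Atpif1 under complex V, 56 were lower and 1, Atpif1, higher. The median log2 fold change was -0.44, and 16.6% of all genes were lower. Against the WT Cre controls alone 28 of the 76 were lower, beside 13.1% of all genes, and against the MCS controls alone 59, beside 14.8%. By complex and against all controls, 23 of 36 were lower in complex I, 3 of 4 in complex II, 6 of 9 in complex III, 10 of 11 in complex IV and 14 of 16 in complex V. Against WT Cre these were 11, 3, 4, 4 and 6, and against MCS 25, 3, 7, 10 and 14. In complex I, Ndufa2 fell to 44.6% of the control mean, Ndufb2 to 61.8% and Ndufb10 to 62.9% (edgeR adjusted p of 0.00367, 0.00129 and 0.00186). In complex II, which has no mitochondrial subunit and also serves the citric acid cycle, Sdha, Sdhb and Sdhc fell to 61.5%, 56.7% and 59.1%. In complex III, Uqcr11 fell to 59.3%, Uqcrc2 to 69.3% and the Rieske protein Uqcrfs1 to 70.3%. In complex IV, Cox7b fell to 41.0%, Cox6c to 56.3% and Ndufa4 to 58.5%. In complex V, Atp5l fell to 58.5%, Atp5g3 to 60.6% and Atp5e to 63.0%. Atpif1, an inhibitor of the ATP synthase, rose, with 12.5 ± 1.15 CPM in the controls and 29.2 ± 2.86 CPM in KO, a log2 fold change of 1.23 (adjusted p = 2.84e-06, edgeR).

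The proteins that transcribe mitochondrial DNA are nuclear, and 7 of 12 listed genes were lower and 0 higher, beside 16.6% and 19.7% of all genes. Against WT Cre 4 of the 12 were lower, beside 13.1% of all genes, and against MCS 6, beside 14.8%. Tfam, which packages the DNA and starts transcription, fell from 41.2 ± 2.86 CPM in the controls to 32.2 ± 4.78 CPM in KO (log2 fold change -0.36, SE 0.105, adjusted p = 0.0178 by edgeR). This call was lost with library size alone (-0.19, adjusted p = 0.244), without KO 3 or KO 4 (-0.34 and -0.27), and against MCS alone (-0.31, adjusted p = 0.0753). On log2(FPKM + 1) its fold change was 0.01. Polrmt, the mitochondrial RNA polymerase, had 22.6 ± 2.65 and 21.1 ± 2.28 CPM, without passing the test (log2 fold change -0.10, SE 0.110, adjusted p = 0.526 by edgeR), and it stood at 0.08 with library size alone. The elongation factor Tefm fell to 64.6% of its control mean (adjusted p = 0.00115, edgeR), and the terminator family members Mterf2 and Mterf1a to 54.6% and 59.8% (edgeR adjusted p of 0.0102 and 0.0368). Neither terminator gene passed against WT Cre alone (edgeR adjusted p of 0.0584 and 0.205). The call of Mterf1a was also lost with library size alone and without KO 1, KO 2, KO 4, WT Cre 1 or any MCS control (-0.73 to -0.57), and that of Mterf2 on FPKM.

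Of 23 genes for processing and stability of mitochondrial RNA, 14 were lower and 1 higher, beside 16.6% and 19.7% of all genes. Against WT Cre 6 of the 23 were lower, beside 13.1% of all genes, and against MCS 11, beside 14.8%. Lrpprc, which keeps the mRNAs stable and polyadenylated, fell to 81.9% of the control mean (log2 fold change -0.29, SE 0.0875, adjusted p = 0.0205 by edgeR). Its call was lost with library size alone (-0.11), on FPKM (-0.11), without KO 3 or KO 4 (-0.28 and -0.25) and against WT Cre alone (adjusted p = 0.0862, edgeR). Prorp, the nuclease of mitochondrial RNase P that cuts the 5′ ends of tRNAs, fell to 58.9%, and the RNA-binding protein Fastkd1 to 62.0% (edgeR adjusted p of 0.000605 and 0.000654). Lactb2, a mitochondrial endoribonuclease, fell to 40.8% (adjusted p = 1.9e-05, edgeR). Pde12, which removes poly(A) tails from mitochondrial RNA, rose to 153% (adjusted p = 0.00199, edgeR). Among 14 regulators of mitochondrial biogenesis, 3 were lower and 2 higher, shares near the 16.6% and 19.7% of all genes. Against WT Cre 4 were lower and 3 higher, and against MCS 3 and 2, where 13.1% and 14.8% of all genes were lower. The coactivator Ppargc1a fell to 50.2% of the control mean (SE of the log2 fold change 0.177, adjusted p = 0.000802 by edgeR), the deacetylase Sirt3 to 54.2% and Gabpa, a transcription factor also known as a subunit of NRF2, to 81.9%. The call of Gabpa was lost with library size alone (-0.11), on FPKM (-0.06) and without KO 3 (-0.24). Esrra, a nuclear receptor that works with Ppargc1a, rose to 169% of the control mean, and Perm1 rose from 0.170 ± 0.0945 to 0.783 ± 0.330 CPM.

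Markers of some other cell types differed between the groups. Of the listed markers, 10 of 10 for Kupffer cells and macrophages, 9 of 10 for stellate cells and fibrosis and 8 of 10 for lymphoid cells were higher in KO, beside 19.7% of all genes. The 2 of 10 endothelial and 1 of 8 cholangiocyte markers that were higher lie near or below that share. In these lists 0 markers were lower, beside 16.6% of all genes. Controls had 279 to 518 summed CPM of the Kupffer and macrophage list, and KO livers 653 to 1489. The stellate list gave 221 to 282 and 505 to 811 summed CPM, and the lymphoid list 10.1 to 15.6 and 20.7 to 59.8. The endothelial list gave 312 to 393 and 330 to 574, and the cholangiocyte list 51.0 to 82.2 and 72.1 to 90.8. Of 10 hepatocyte markers, 7 were lower and 1, Trf, was higher, beside 16.6% and 19.7% of all genes. Against WT Cre alone 2 of the 10 were lower and against MCS alone 8, beside 13.1% and 14.8% of all genes. Of these markers 1 was lower in WT Cre than in MCS, where 0.927% of all genes were called in either direction. Their sum was 122461 to 172218 CPM in controls against 120279 to 130469 CPM in KO, so that the tissue was liver by its defining genes in every sample. Of 6 red blood cell markers 0 passed, at 125 to 324 and 52.4 to 219 CPM (edgeR). No marker of these lists was at 0 in every liver. Their part in the levels of the mitochondrial transcripts was not tested.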

How the data were processed

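Per the labels and the study's methods, the authors trimmed reads of a directional poly(A) library, aligned them with STAR to mm10 and counted reads per gene. The methods name HOMER for counting, whereas the submitters' processing notes name HTSeq and Cufflinks. Use of strand and of reads with several matches is not given in the sources used here. The deposited counts are whole numbers without normalization. The deposited FPKM values are fragments scaled by transcript length and library size, and blank cells were read as 0. Columns of controls were matched to WT Cre (numbers 1 to 3) and MCS mice by the number in the library names; values per kind of control and the replicate block rest on this match. All 10 columns were assigned.

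Genes with at least 10 counts in all were kept (22449). Counts were tested with edgeR 4.0.16 in R 4.3.3 (quasi-likelihood, TMM, robust dispersion, two-sided), with Benjamini-Hochberg adjustment over all genes tested. KO against all controls used a fit of 2 groups, and the other comparisons a fit of 3 groups. FPKM were tested with limma 3.58.1 on log2(FPKM + 1), a scale that understates changes of low genes, and DESeq2 1.42.0 was an alternative. edgeR calls were tested on simulated data. SE is that of the log2 fold change. CPM per kb used GENCODE M21 lengths. Shared sequence was counted as windows of 50 bases found in any other of the annotated transcripts, both strands, by Python 3.11.15. Total counts of 14998426 to 26096141 leave abundant mRNAs limited by the spread between mice and rare tRNAs by counting.

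Members and gene lists were chosen with earlier results of these data known. The lists were mitochondrial DNA transcription, RNA processing, DNA replication, biogenesis, complexes I to V, import and matrix, nuclear copies and markers of 7 cell types; Tf was read as Trf, its name in the table. Named were all mRNAs and rRNAs, up to 8 tRNAs by fold change among those called plus the 3 with most counts, and up to 3 genes per list and direction by fold change among those called, with Tfam, Polrmt, Lrpprc and Ppargc1a always. Alternatives changed scaling, filter, tool, unit, replicates left out and a replicate block.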

Additional observations from a re-analysis of the deposited data

Results flagged for a closer look

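Values were checked for a single liver far from the rest of its group, in the 4 KO livers and in the 6 controls, over the 15 mRNAs and rRNAs, the named tRNAs and the mitochondrial share of counts. This gave 48 checks, of which 9 found such a liver, while chance gives about 1 in 20. Among the controls, MCS 3 stood out with 1177 CPM of mt-Rnr1 and 1663 CPM of mt-Rnr2, and it also had the lowest TMM factor (0.858). WT Cre 1 stood out with 44.1 CPM of mt-Nd4l and the highest mitochondrial share of counts, 6.84%. Without it the difference in that share between KO and controls was -0.647 percentage points in place of -0.816. MCS 2 stood out with 1.29 CPM of mt-Tm. Among the KO livers, KO 3 was low in mt-Nd3 (6.91 CPM), KO 4 high in mt-Tm (0.459 CPM), KO 1 high in mt-Ts1 (0.391 CPM) and KO 2 high in its mitochondrial share (5.34%).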

How the results depend on the processing

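For KO against all controls, 18 or 19 members were called with DESeq2, its size factors, nuclear counts as the scale or another filter, 14 with library size alone and 14 to 20 with each liver left out. On FPKM the count of 19 became 7 (pseudocount 1) or 8 (0.1), and the 17 against WT Cre became 6 with either, all of them lower. The 16 against MCS, all lower, became 5 with either. Of these 5, 4 were lower and 1, mt-Nd1, was higher (log2 fold change of 0.45 with either pseudocount). Over the members with under 10% of windows shared, a choice made after seeing the data, 11 were called, of which 2 were mRNAs. Leaving out single livers gave 9 to 18 against WT Cre and 11 to 18 against MCS, and 0 between the controls throughout. With the replicate block the counts were 16, 15, 14 and 0; the numbers did not pair the mice (correlations of -0.0387 to 0.111 between same-numbered mice), and KO 4, alone in its block, added nothing. The difference in mitochondrial share, -0.816 percentage points, was -6.15 of summed FPKM, -1.32 without the 50 most abundant nuclear genes and -0.342 for the members with little shared sequence. The value of -6.15 stands on another base, as FPKM are divided by length and those of the tRNAs are doubtful. Its size cannot be set beside the share of counts. The gain of mt-Nd1 in the mRNA makeup, a member chosen for its value, was 4.92 percentage points by counts, 3.15 by FPKM and 7.87 among mRNAs with little shared sequence. Some log2 fold changes took the other sign. On FPKM with pseudocounts 1 and 0.1 these were mt-Nd3 (0.11, against WT Cre 0.20, against MCS 0.0178), mt-Tm (0.19), mt-Tq (0.54), Tfam (0.0092 and 0.00972), and against MCS mt-Co2 (0.0147), mt-Atp8 (0.0101) and mt-Nd5 (0.0298). With library size alone they were Polrmt (0.0786) and, against MCS, mt-Nd5 (0.0101). With single livers left out, mt-Tp ran from -0.0663 to 0.215, and against WT Cre mt-Nd1 from -0.0133 to 0.11 and mt-Nd5 from -0.43 to 0.0377. Where the cause is not in the sentence, the cause was not tested. Of the values of single members, 848 kept direction and side of the threshold, 130 fell short of it and 3, all mt-Nd1 against MCS, newly passed. Depth limits the tRNAs, most of which had under 1 CPM, and their capture by selection for poly(A) tails was not measured.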

Other observations

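Ratios between members, taken per length within each liver, carry no scaling to nuclear genes. The log2 ratio of mt-Nd1 to mt-Nd2, its next mRNA, was 0.12 ± 0.07 in the controls (SD, n = 6) and 0.61 ± 0.14 in KO (SD, n = 4), without overlap. The log2 ratio of mt-Nd1 to mt-Cytb was -0.35 ± 0.23 and 0.38 ± 0.10, and that of mt-Nd1 to mt-Rnr2, its neighbour on the other side of mt-Tl1, was 3.82 ± 0.50 and 4.98 ± 0.38. In the last, the lowest KO value, 4.44 in KO 4, stood just above the highest control value, 4.42 in WT Cre 1. The log2 ratio of mt-Rnr1 to mt-Rnr2 overlapped, at 0.45 ± 0.12 and 0.81 ± 0.33. These ratios were chosen after the levels were seen and were not tested.

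Of 18 genes for replication and upkeep of mitochondrial DNA, 6 were lower in KO and 2 higher (edgeR), beside 16.6% and 19.7% of all genes, with the nuclease Dna2 at 53.1%, the topoisomerase Top1mt at 57.4% and the single-strand binding protein Ssbp1 at 63.6% of the control mean, and the pyrimidine nucleotide carrier Slc25a36 at 236% and Exog at 147%. Against WT Cre alone 4 were lower, beside 13.1% of all genes, and against MCS alone 5, beside 14.8%. Exog did not pass against either kind of control alone (edgeR adjusted p of 0.125 and 0.102), and Dna2 did not pass on FPKM. Of 23 genes for import, membranes and matrix, 7 were lower and 2 higher, beside the same shares of all genes. Against WT Cre alone 5 were lower and 2 higher, and against MCS alone 9 and 1, where 13.1% and 14.8% of all genes were lower. Phb2 and Phb, the prohibitins, fell to 68.2% and 73.2%, and the protease Lonp1 to 75.2%. The ADP/ATP carrier Slc25a4 rose to 202% and the translocase subunit Timm50 to 122%. Lonp1 did not pass with library size alone or on FPKM, and Timm50 not against MCS alone (adjusted p = 0.195, edgeR). Of 9 tested candidates for nuclear copies of mitochondrial DNA, 7 were lower, beside 16.6% of all genes. Against WT Cre alone 3 were lower, beside 13.1%, and against MCS alone 7, beside 14.8%. Gm10925, Gm10222 and Gm28437 stood at 50.3%, 57.7% and 57.7% of the control mean. Of these, Gm10925 and Gm28437 did not pass against WT Cre alone (edgeR adjusted p of 0.241 and 0.0523). Their reads cannot be told apart from those of mt-Atp6, mt-Nd4l and mt-Co3.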
